A study of Xenopus laevis with 3 samples.

Results

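The cytosolic ribosomal protein genes encode the protein components of the ribosomes that translate nuclear messages. They were taken as every probe set whose single platform symbol was rpl or rps followed by a digit, rplp followed by a digit, or rpsa, with the kinase symbols rps6k and the rps19bp symbols left out. The rule found 149 of 32635 probe sets, which is 0.457% of the array, and these belonged to 90 of the 11303 named genes. Of the 90 genes, 56 were of the large subunit and 34 of the small subunit. Xenopus laevis descends from a cross between ancestral species, so many genes are kept as a .L and a .S copy, called homeologs. The genes comprised 44 .L copies, 43 .S copies and 3 symbols without a copy suffix (rpl19-b, rps16 and rps9).

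A ribosome is built in the nucleolus from ribosomal RNA and single copies of most of its proteins, so the cell makes the proteins in matched amounts. Their messages are among the most abundant in growing cells, and in vertebrates they start with a pyrimidine tract through which mTOR controls their translation. Surplus large-subunit proteins that carry the 5S ribosomal RNA bind the p53 inhibitor Mdm2 in mammals, and mutations of single ribosomal protein genes cause Diamond-Blackfan anaemia in human.

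The samples were heads of tadpoles injected with a morpholino, an antisense oligonucleotide that blocks translation or splicing of its target. The group xMLTK-MO was described in the labels as xMLTK-depleted; MLTK, also known as ZAK, is a kinase that in mammalian cells binds ribosomes and responds when they stall. The group xSox6-MO was described as xSox6-depleted. Sox6 is a transcription factor with a role in cartilage formation in mouse. The group CoMO received another morpholino, whose name the labels do not spell out; it served here as the reference. All groups came from in vitro fertilised embryos of the same species, kept at 22 °C, injected at the 4-cell stage with 10 ng per cell into the animal pole of every cell, and collected 72 hours after fertilisation at about stage 41. Labelled RNA was made from 150 ng of total RNA and hybridised to a 3' expression array. Each group had 1 array, so no replicate spread and no test exist, and every difference below is that between a pair of arrays. How many heads were pooled, whether the groups shared a clutch and how far each target protein was depleted are not given in the sources used here. All comparisons with CoMO share 1 array.

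The arrays had median intensities of 91.1 in xMLTK-MO, 89.8 in xSox6-MO and 92.7 in CoMO, and the highest of 23 negative control probe sets had an intensity of 26.2, 21.0 and 23.3 in the same order. Markers of head tissues were above that control: 10 of 10 neuron, 7 of 7 photoreceptor, 7 of 7 lens and 5 of 5 head muscle genes on each array. Cartilage markers were above it for 8 of 9 genes in xMLTK-MO, 8 of 9 in xSox6-MO and 9 of 9 in CoMO. Markers of single tissues differed between the arrays. The summed intensity of lens markers was 10131 in xMLTK-MO, 5837 in xSox6-MO and 16238 in CoMO, that of cartilage markers 13108, 12455 and 19048, and that of epidermis markers 31150, 35894 and 26763. Pancreas genes, which a head should lack, summed to 2143 in xMLTK-MO, 673 in xSox6-MO and 250 in CoMO and were above the negative controls for 7, 6 and 3 of 9 genes. Liver genes, which a head should also lack, summed to 6658, 4826 and 6395. They were above the negative controls for 5, 6 and 5 of 6 genes, so this signal was present in CoMO too. The part of these differences in the ribosomal protein values was not tested, and in whole heads fewer cells of a type and less RNA per cell cannot be told apart.

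Ribosomal protein messages were among the brightest signals on the arrays. Of the 326 probe sets in the top 1% by mean log2 intensity, 92 (28.2%) were ribosomal protein probe sets by the rule, and of the top 100, 39 were. A further 18 probe sets carried several symbols that included a ribosomal protein; they were left out of the genes, and all of them lay in the top 1%. By the probe set with the highest level of each gene, the median log2 intensity of the 90 genes was 13.43 in xMLTK-MO, 13.50 in xSox6-MO and 13.46 in CoMO. The corresponding median intensities were 11072, 11575 and 11248, against a highest intensity on the whole array of 23020, 23719 and 22711. By the mean of each gene's probe sets the median was 12.84 in xMLTK-MO, 12.98 in xSox6-MO and 12.86 in CoMO, so xSox6-MO was the highest by either summary.

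The gene fau.L, whose product is cleaved to the small-subunit protein eS30, carries its own symbol, outside the rule, and had log2 levels of 13.32 in xMLTK-MO, 13.45 in xSox6-MO and 13.33 in CoMO. Among the members, 5 were not canonical symbols: rpl22l1.L, rpl3l.L and rpl7l1.L, which are paralogs of canonical proteins, and rpl19-b and rps28p9.S. The members did not cover the whole ribosome. Of 80 canonical symbols 67 had a member, 42 of 47 in the large and 25 of 33 in the small subunit, and 13 had none.

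A gene entered the comparisons when its mean log2 intensity over the 3 arrays was at least 6.51, the median of all probe sets, which corresponds to an intensity of 91.4. This held for 84 of the 90 genes, 52 of the large and 32 of the small subunit, among 7258 genes overall. The remaining 6 were dim on every array. rpl19-b (2.58, 2.44 and 2.44 in xMLTK-MO, xSox6-MO and CoMO), rpl29.S (3.34, 3.70 and 3.48), rpl34.S (3.40, 3.53 and 3.49) and rpl3l.L (2.59, 2.68 and 2.70), the last a paralog of rpl3 with a muscle-restricted pattern in mammals, were not above the negative controls. rps15.S (4.97, 4.99 and 4.79) and rps15a.S (6.13, 6.20 and 5.94) were above them. Another 4 genes passed with no bright probe set, namely rpl37.S, rps4x.S, rps6.L and rps28p9.S, so that 80 genes had a probe set with a log2 intensity of at least 11.

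Most of these transcripts differed little between xMLTK-MO and CoMO heads. Of the 84 genes, 4 were at least 1.2-fold higher in xMLTK-MO, where 15.9% of all genes passing the filter were, and 4 were at least 1.2-fold lower, where 18% of all genes were. None reached 2-fold in either direction, against 1.28% of all genes higher and 0.785% lower. The median log2 difference was -0.0085 for the ribosomal protein genes and -0.021 for all genes, and the median size of the difference, regardless of sign, was 0.048 for ribosomal protein genes and 0.17 for all genes. By sign 37 genes were higher and 47 lower, against 46.9% and 53.1% of all genes. This split had no stable direction: it was 46 higher and 37 lower after a renewed quantile normalisation, 69 and 15 with the arrays centred on the hybridisation controls, and 80 and 4 with them centred on the poly-A controls. Those control probe sets, meant for RNAs added in fixed amounts, were themselves lower in the knockdown arrays: the hybridisation controls differed on average by -0.11 in xMLTK-MO and -0.15 in xSox6-MO from CoMO, and the poly-A controls by -0.27 and -0.37. Centring subtracts these means from every gene, so the median of all genes became 0.085 and 0.14 on the hybridisation controls and 0.25 and 0.37 on the poly-A controls, and differences of single genes below shift by the same amounts. The poly-A controls were dim, with mean log2 intensities of 6.22 in xMLTK-MO, 6.12 in xSox6-MO and 6.49 in CoMO, below the level filter of 6.51. The hybridisation controls had means of 10.63, 10.59 and 10.73.

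In xSox6-MO heads the typical ribosomal protein message was slightly higher than in CoMO heads. Of the 84 genes 58 were higher and 26 lower, against 49.1% and 50.9% of all genes, with a median log2 difference of 0.056 against -0.0052 for all genes. The split was 55 and 27 after renewed quantile normalisation, 81 and 3 on the hybridisation controls and 82 and 2 on the poly-A controls. Both control scales moved all genes upwards, to medians of 0.14 and 0.37. At 1.2-fold 2 genes were higher and 2 lower, where 18.1% and 18.5% of all genes were. Only rps6.L, at 2.04-fold higher, reached 2-fold, which 0.978% of all genes did upwards and 1.06% downwards.

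Set against each other, the knockdown heads differed more often in one direction. Ribosomal protein genes were lower in xMLTK-MO than in xSox6-MO heads in 61 of 84 cases and higher in 23, against 51.9% and 48.1% of all genes, with a median log2 difference of -0.052 against -0.010. The split was 30 higher and 54 lower after renewed quantile normalisation, 15 and 69 on the hybridisation controls and 6 and 78 on the poly-A controls. Both control scales moved all genes downwards here, to medians of -0.050 and -0.11. In size the differences were small: 1 gene was at least 1.2-fold higher in xMLTK-MO and 8 at least 1.2-fold lower, where 13% and 13.8% of all genes were, and none reached 2-fold, against 0.496% higher and 0.22% lower.

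The 80 genes with a probe set at log2 11 or above were also set beside all 675 genes that had one, each gene read from its brightest probe set. In xMLTK-MO against CoMO, 38 were higher and 42 lower (48.9% and 51.1% of the 675), and 0 and 3 passed 1.2-fold upwards and downwards (11.3% and 10.5%). In xSox6-MO against CoMO, 53 were higher and 27 lower (53.9% and 46.1%), and 1 and 2 passed 1.2-fold (15.4% and 10.8%). In xMLTK-MO against xSox6-MO, 30 were higher and 50 lower (44.3% and 55.7%), and 0 and 4 passed 1.2-fold (7.7% and 11.7%). The median log2 differences in xMLTK-MO against CoMO were -0.0061 for the ribosomal protein genes and -0.0049 for the 675. They were 0.028 and 0.017 in xSox6-MO against CoMO, and -0.035 and -0.027 in xMLTK-MO against xSox6-MO. In each comparison these medians lay closer together than those over all genes passing the level filter. Both the filter and the summary of each gene differ between these readings, so the narrowing cannot be put down to level alone. Ribosomal protein genes crossed 1.2-fold in a smaller share than bright genes as a whole in each comparison and direction. This is a description with no test, and the sets were not alike in level: the median was a log2 intensity of 13.52 for the ribosomal protein genes and 11.70 for the 675.

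**Figure D1:**
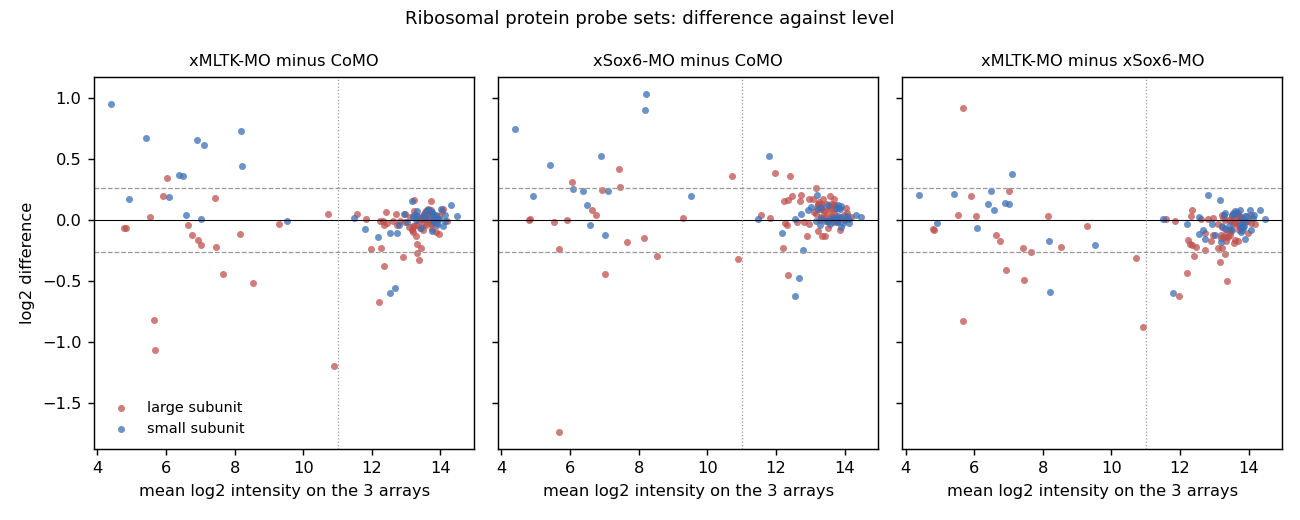
Log2 difference between a pair of arrays (vertical axis) against the mean log2 intensity over the 3 arrays (horizontal axis) for the 137 ribosomal protein probe sets above the negative controls on at least 1 array; red points are large-subunit and blue points small-subunit probe sets, dashed lines mark 1.2-fold and the dotted line a log2 intensity of 11. Above log2 14 no probe set differed by more than 0.12, while below log2 11 differences reached 1.73 in size.

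Differences were larger among the dimmest probe sets than among the brightest. Among the 32 probe sets below a log2 intensity of 11, the median size of the difference was 0.20 in xMLTK-MO against CoMO, 0.24 in xSox6-MO against CoMO and 0.20 in xMLTK-MO against xSox6-MO. It did not fall evenly with level: it was 0.049, 0.042 and 0.011 among the 5 probe sets between 11 and 12, and 0.050, 0.16 and 0.12 among the 22 between 12 and 13. Among the 69 probe sets between 13 and 14 it was 0.043, 0.064 and 0.058. The 9 brightest, at 14 or above, differed by at most 0.12, 0.095 and 0.086.

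Large-subunit genes and small-subunit genes differed little from each other. In xMLTK-MO against CoMO the median log2 difference was -0.021 for large-subunit genes (18 higher, 34 lower) and 0.0078 for small-subunit genes (19 higher, 13 lower). All 4 genes past 1.2-fold upwards were of the small subunit and all 4 past it downwards were of the large subunit. By the brightest probe set this split did not hold: 1 small-subunit gene was past 1.2-fold upwards and 1 downwards, beside 2 large-subunit genes downwards. In xSox6-MO against CoMO the medians were 0.056 (36 higher, 16 lower) and 0.048 (22 higher, 10 lower). In xMLTK-MO against xSox6-MO they were -0.10 (11 higher, 41 lower) and -0.034 (12 higher, 20 lower). Of all genes passing the filter, 46.9%, 49.1% and 48.1% were higher and 53.1%, 50.9% and 51.9% lower in the same order. The gap between the subunits, large minus small, was -0.029, 0.0079 and -0.068 in these comparisons, and it was -0.016, 0.021 and -0.0020 when each gene was read from its brightest probe set.

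**Figure D2:**
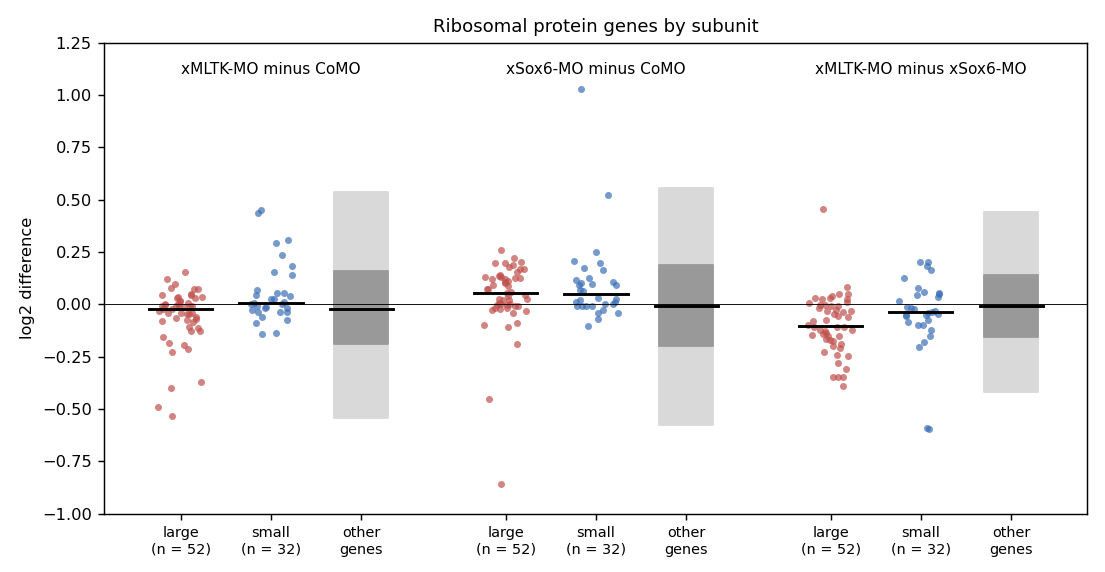
Log2 difference per gene for the 52 large-subunit (red) and 32 small-subunit (blue) ribosomal protein genes that passed the level filter, in each comparison; black bars are medians, and the grey boxes give the middle 50% (dark) and the middle 90% (light) of the other genes. The subunit medians lie between -0.10 and 0.056, and the point at 1.03 in xSox6-MO minus CoMO is rps6.L.

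Many of the largest gene differences came from dim probe sets of genes that also had bright ones. Of the 34 genes with several probe sets, 24 had at least 1 at log2 11 or above and at least 1 below it, and 23 had probe sets more than 4 log2 units apart. Of the 149 probe sets, 105 were at log2 11 or above, 32 lay between that and the negative controls, and 12 were not above the controls on any array. Among genes with several probe sets, the median gap between the highest and the lowest difference was 0.27 in xMLTK-MO against CoMO, 0.20 in xSox6-MO against CoMO and 0.16 in xMLTK-MO against xSox6-MO. Bright and dim probe sets of the genes with the largest differences are therefore given apart.

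In the large subunit, rpl3.L was the gene with the largest negative difference in xMLTK-MO, and its probe sets moved together. RPL3 lies close to the peptidyl transferase centre, where peptide bonds form. Its 5 probe sets had log2 levels of 13.33, 13.19, 12.74, 11.83 and 10.22 in xMLTK-MO, of 13.43, 13.33, 12.92, 12.26 and 11.09 in xSox6-MO, and of 13.56, 13.46, 13.04, 12.50 and 11.41 in CoMO. For every probe set the order was the same, lowest in xMLTK-MO and highest in CoMO. The differences from CoMO ranged from -0.23 to -1.19 in xMLTK-MO, each larger in size the dimmer the probe set, and from -0.13 to -0.32 in xSox6-MO. The gene mean differed from CoMO by -0.53 in xMLTK-MO, 1.45-fold lower, and by -0.19 in xSox6-MO, 1.14-fold lower. xMLTK-MO was 1.27-fold below xSox6-MO (-0.34). On the poly-A scale the difference of xMLTK-MO from CoMO was -0.26, while that of xSox6-MO turned to 0.19.

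The paralog rpl22l1.L was lower in both knockdown groups. RPL22L1 is a close relative of RPL22 that can take its place in the ribosome, and in mouse its level rises when Rpl22 is lost. Its only probe set had log2 levels of 12.25 in xMLTK-MO, 12.17 in xSox6-MO and 12.62 in CoMO, so CoMO was the highest. The differences from CoMO were -0.37 (1.29-fold lower) in xMLTK-MO and -0.45 (1.37-fold lower) in xSox6-MO, and -0.10 and -0.080 on the poly-A scale. The canonical gene rpl22.S had 3 probe sets, at 13.11, 12.94 and 12.33 in xMLTK-MO, 13.14, 13.06 and 12.63 in xSox6-MO, and 13.08, 12.89 and 12.27 in CoMO. All 3 were lowest in CoMO, by between 0.026 and 0.36. Another paralog, rpl7l1.L, had a bright probe set at 11.60 in xMLTK-MO, 11.59 in xSox6-MO and 11.55 in CoMO.

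In several further large-subunit genes the differences lay in the dimmer probe sets. rpl27.S had a bright probe set at 13.84 in xMLTK-MO, 13.84 in xSox6-MO and 13.82 in CoMO and a dim one at 5.695, 4.783 and 6.515. The gene mean differed from CoMO by -0.40 in xMLTK-MO, 1.32-fold lower, and by -0.86 in xSox6-MO, 1.81-fold lower, whereas its bright probe set differed by 0.020 and 0.017. rpl27a.L had probe sets at 13.68 and 5.04 in xMLTK-MO, 13.63 and 5.87 in xSox6-MO, and 13.59 and 6.10 in CoMO. Its mean differed from CoMO by -0.49 in xMLTK-MO, 1.40-fold lower, while its bright probe set was 0.090 higher. rpl36a.L had 5 probe sets; the brightest was at 13.64, 13.62 and 13.61 in xMLTK-MO, xSox6-MO and CoMO, and the gene mean differed from CoMO by -0.21 and -0.11. Its dimmest 3 probe sets differed from CoMO by -0.52, -0.44 and -0.21 in xMLTK-MO and by -0.30, -0.18 and -0.44 in xSox6-MO. The highest difference from CoMO among its 5 probe sets was 0.052 in xMLTK-MO and 0.36 in xSox6-MO, so not all were lower. rpl14.S had a mean 0.22 higher in xSox6-MO than in CoMO, and its bright probe set, at 13.73, 13.70 and 13.69 in the 3 groups, differed by 0.014, while its dim probe sets differed by 0.41 and 0.24.

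Some bright probe sets also differed between the knockdown groups. rpl32.L, a core protein of the large subunit, had log2 levels of 13.02 in xMLTK-MO, 13.37 in xSox6-MO and 13.11 in CoMO, so xSox6-MO was the highest. It was 1.27-fold lower in xMLTK-MO than in xSox6-MO (-0.35) and 0.26 higher in xSox6-MO than in CoMO. rpl29.L had 12.13 in xMLTK-MO, 12.33 in xSox6-MO and 12.36 in CoMO, a 1.17-fold lower level in xMLTK-MO against CoMO (-0.23). rpl10a.S, named after its values were seen, had a bright probe set at 13.10 in xMLTK-MO, 13.59 in xSox6-MO and 13.42 in CoMO, a difference of -0.50 in xMLTK-MO against xSox6-MO. Its dim probe set, at 6.58, 6.70 and 6.63, differed by -0.12 there and its gene mean by -0.31.

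Around the exit of the peptide tunnel, where newly made proteins leave the ribosome, 9 genes of 7 proteins were measured. Their median differences were -0.020 in xMLTK-MO against CoMO (2 higher, 7 lower), 0.052 in xSox6-MO against CoMO (7 higher, 2 lower) and -0.12 in xMLTK-MO against xSox6-MO (3 higher, 6 lower), where all genes had the shares by sign given above. By the brightest probe set the medians were -0.047, 0.000060 and -0.027, so the last 2 were closer to 0. rpl17.S had probe sets at 13.70 and 11.69 in xMLTK-MO, 13.76 and 12.32 in xSox6-MO, and 13.77 and 11.93 in CoMO, and its mean was 1.27-fold lower in xMLTK-MO than in xSox6-MO (-0.34). rpl31.S had 13.64 in xMLTK-MO, 13.81 in xSox6-MO and 13.64 in CoMO. rpl38.L, required for axial patterning in mouse, had a bright probe set at 13.83 in xMLTK-MO, 13.84 in xSox6-MO and 13.93 in CoMO and a dim one at 6.17, 6.14 and 5.83, which differed the other way. rpl39.L had 13.23, 13.18 and 13.27 and rpl39.S 12.97, 12.95 and 12.99. The other members near the exit, rpl19.L, rpl23a.S and rpl35.L, differed between groups by no more than 1.2-fold by gene mean.

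Messages for the proteins of the acidic stalk, which recruits elongation factors to the ribosome, were close together by their brightest probe sets. rplp0.S had a bright probe set at 13.74 in xMLTK-MO, 13.74 in xSox6-MO and 13.65 in CoMO. rplp1.L had 13.32, 13.46 and 13.39, rplp2.L had 13.44, 13.44 and 13.42, and rplp2.S had 12.60, 12.60 and 12.61 by its brighter probe set. The dim probe set of rplp0.S, at 7.22, 7.71 and 7.44, was again more spread, and the gene mean of rplp0.S differed by -0.245 in xMLTK-MO against xSox6-MO. The partners of the 5S ribosomal RNA were highest in xSox6-MO for each gene: rpl5.L had 13.52 in xMLTK-MO, 13.69 in xSox6-MO and 13.56 in CoMO, rpl5.S had 13.00, 13.22 and 13.05, and rpl11.S had 13.60, 13.62 and 13.52. The largest of these differences, -0.23 for rpl5.S in xMLTK-MO against xSox6-MO, was 1.17-fold.

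In the small subunit rps6.L had the largest positive difference. RPS6 is the substrate of the S6 kinases downstream of mTOR. Its only probe set was dim for a ribosomal protein gene, with log2 levels of 8.15 in xMLTK-MO, 8.75 in xSox6-MO and 7.72 in CoMO. It was thus highest in xSox6-MO and lowest in CoMO: 1.35-fold higher in xMLTK-MO than in CoMO (0.44), 2.04-fold higher in xSox6-MO than in CoMO (1.03) and 1.51-fold lower in xMLTK-MO than in xSox6-MO (-0.59). It was the only probe set of rps6 analysed here, so this value has no internal check.

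rps7.L was highest in xSox6-MO. RPS7 belongs to the small-subunit proteins whose genes are mutated in Diamond-Blackfan anaemia. It had log2 levels of 11.57 in xMLTK-MO, 12.16 in xSox6-MO and 11.64 in CoMO, with xMLTK-MO and CoMO within 0.074 of each other. It was 1.44-fold higher in xSox6-MO than in CoMO (0.52) and 1.51-fold lower in xMLTK-MO than in xSox6-MO (-0.60).

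rps9.S had probe sets that went opposite ways, so its mean hid a difference. RPS9 sits near the entry of the messenger RNA channel. This gene was named after its values were seen. Its 2 bright probe sets had levels of 12.46 and 12.35 in xMLTK-MO, 12.55 and 12.33 in xSox6-MO, and 13.02 and 12.95 in CoMO. They were lower in both knockdown groups, with differences from CoMO of -0.56 and -0.60 in xMLTK-MO and of -0.47 and -0.63 in xSox6-MO. Its dim probe set was higher in both, at 8.36 in xMLTK-MO, 8.54 in xSox6-MO and 7.64 in CoMO. The mean of the 3 differed by -0.14 and -0.068 from CoMO, and rps9 without a copy suffix was level at 13.89, 13.91 and 13.89.

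The small-subunit genes that were highest in xMLTK-MO against CoMO were led by dim probe sets. rps12.S had a bright probe set at 12.85 in xMLTK-MO, 12.65 in xSox6-MO and 12.90 in CoMO and a dim one at 4.79, 4.59 and 3.84, the last below the highest negative control of its array. Its mean was 1.37-fold higher in xMLTK-MO than in CoMO (0.45), and its bright probe set was 0.043 lower. rps12.L had probe sets at 13.97 and 7.44 in xMLTK-MO, 13.93 and 7.06 in xSox6-MO, and 13.96 and 6.83 in CoMO, with a mean 0.31 higher in xMLTK-MO than in CoMO. For rps27.S the mean was 0.29 higher in xMLTK-MO than in CoMO; its probe sets had 14.39, 14.09 and 5.72 in xMLTK-MO, 14.31, 14.00 and 5.50 in xSox6-MO, and 14.27, 14.00 and 5.05 in CoMO. rps19.S, the gene most often mutated in Diamond-Blackfan anaemia, had 14.17, 11.50 and 7.16 in xMLTK-MO, 14.13, 11.49 and 7.03 in xSox6-MO, and 14.12, 11.48 and 6.51 in CoMO. Its mean was 0.24 higher in xMLTK-MO than in CoMO and its brightest probe set 0.044 higher. rps28p9.S, with probe sets at 7.07 and 6.69 in xMLTK-MO, 6.94 and 6.46 in xSox6-MO, and 7.06 and 6.34 in CoMO, was 0.18 higher in xMLTK-MO than in CoMO.

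**Figure D3:**
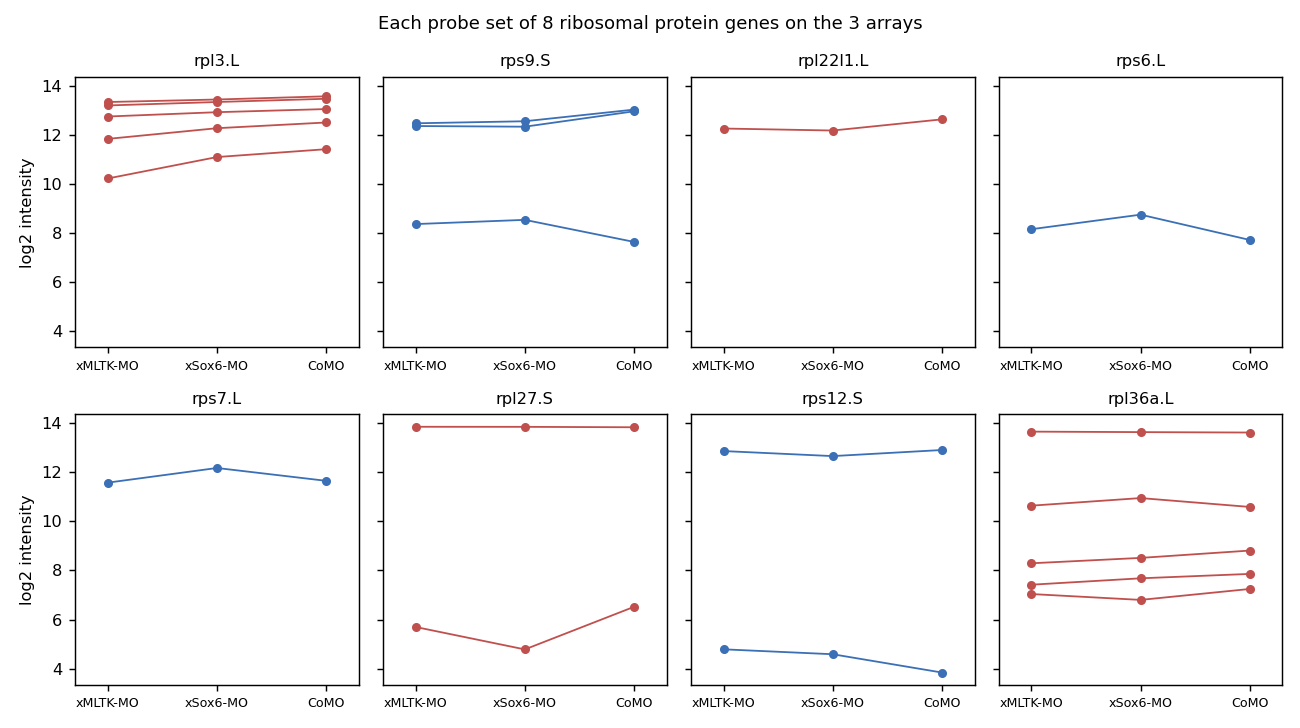
Log2 intensity (vertical axis) of each probe set, joined by a line, on the xMLTK-MO, xSox6-MO and CoMO arrays for 8 ribosomal protein genes; red lines are large-subunit and blue lines small-subunit genes. All 5 probe sets of rpl3.L are lowest in xMLTK-MO and highest in CoMO, while the bright and dim probe sets of rps9.S go opposite ways and the bright probe set of rpl27.S is level near 13.8.

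Messages for other small-subunit proteins of fixed roles were nearly level. rps2.L, at the channel through which the message enters, had the brightest probe set of all members, at 14.49 in xMLTK-MO, 14.49 in xSox6-MO and 14.46 in CoMO. Its neighbour rps3.L had 13.64, 13.57 and 13.56 by its brightest probe set, and rps3.S had 13.29, 13.25 and 13.29. For the laminin receptor rpsa both copies were highest in xSox6-MO: rpsa.L had 13.15 in xMLTK-MO, 13.33 in xSox6-MO and 13.12 in CoMO, and rpsa.S had 13.83, 13.99 and 13.87. Near the decoding site rps15.L had 12.13, 12.16 and 12.27, lowest in xMLTK-MO, and rps23.L had 13.79, 13.83 and 13.80. rps13.L had 13.27 in xMLTK-MO, 13.10 in xSox6-MO and 13.11 in CoMO, 1.12-fold higher in xMLTK-MO than in xSox6-MO (0.16).

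Genes mutated in Diamond-Blackfan anaemia gave 19 measured copies of 16 proteins, of which 18 copies passed the filter. Their median difference was -0.0052 in xMLTK-MO against CoMO (8 higher, 10 lower), 0.096 in xSox6-MO against CoMO (12 higher, 6 lower) and -0.038 in xMLTK-MO against xSox6-MO (6 higher, 12 lower). Of all 84 ribosomal protein genes 37, 58 and 23 were higher and 47, 26 and 61 lower in the same order, and all genes had the shares by sign given above. At 1.2-fold 1 was higher and 1 lower in each comparison, where 15.9% and 18% of all genes were in the first, 18.1% and 18.5% in the second, and 13% and 13.8% in the third. The genes concerned were rpl27.S, rps27.S and rps7.L, described above, of which rpl27.S differed in its dim probe set and by at most 0.020 in its bright one.

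Homeolog pairs were measured for 17 proteins, and in 14 of them both copies had a probe set at log2 11 or above. In the other 3 pairs the .S copy was dim: rps15, rpl29 and rpl34. For the 14 pairs the copies differed from each other, in their brightest probe sets' differences, by a median of 0.048 in xMLTK-MO against CoMO, 0.052 in xSox6-MO against CoMO and 0.033 in xMLTK-MO against xSox6-MO. The largest such gaps were 0.091 for rpl4, 0.22 for rps12 and 0.17 for rps12. Both copies lay on the same side of 0 in 8, 9 and 12 of the 14 pairs. Of the 80 ribosomal protein genes with a bright probe set, 38, 53 and 30 were higher and 42, 27 and 50 lower in these comparisons. The share over all homeolog pairs of the array is not given here, so these counts do not show that copies move together. Whether the probes of 1 copy also bind the other was not tested; 28 of the 149 probe sets were of the _a_at class, 19 of the _x_at class and 13 of the _s_at class, names the array maker gives to sets whose probes may match several transcripts.

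By gene means the 5 pairs with the most unequal differences were rps15, rpl29, rpl17, rps12 and rpl4. For rps15 the .L copy was 0.14 lower and the dim .S copy 0.17 higher in xMLTK-MO than in CoMO. For rpl29 the .L copy differed by -0.028 and the .S copy, below the negative controls, by 0.22 in xSox6-MO against CoMO. For rpl17 the .L copy differed by -0.13 and the .S copy by -0.34 in xMLTK-MO against xSox6-MO. For rps12 the .L copy differed by 0.10 and the .S copy by 0.25 in xSox6-MO against CoMO, but by -0.024 and -0.25 in their brightest probe sets, and the dim probe set of the .S copy was not above the negative controls in CoMO. For rpl4 the levels were 12.63 and 12.69 in xMLTK-MO, 12.88 and 12.80 in xSox6-MO, and 12.67 and 12.64 in CoMO for the .L and .S copies, so that both were highest in xSox6-MO.

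**Figure D4:**
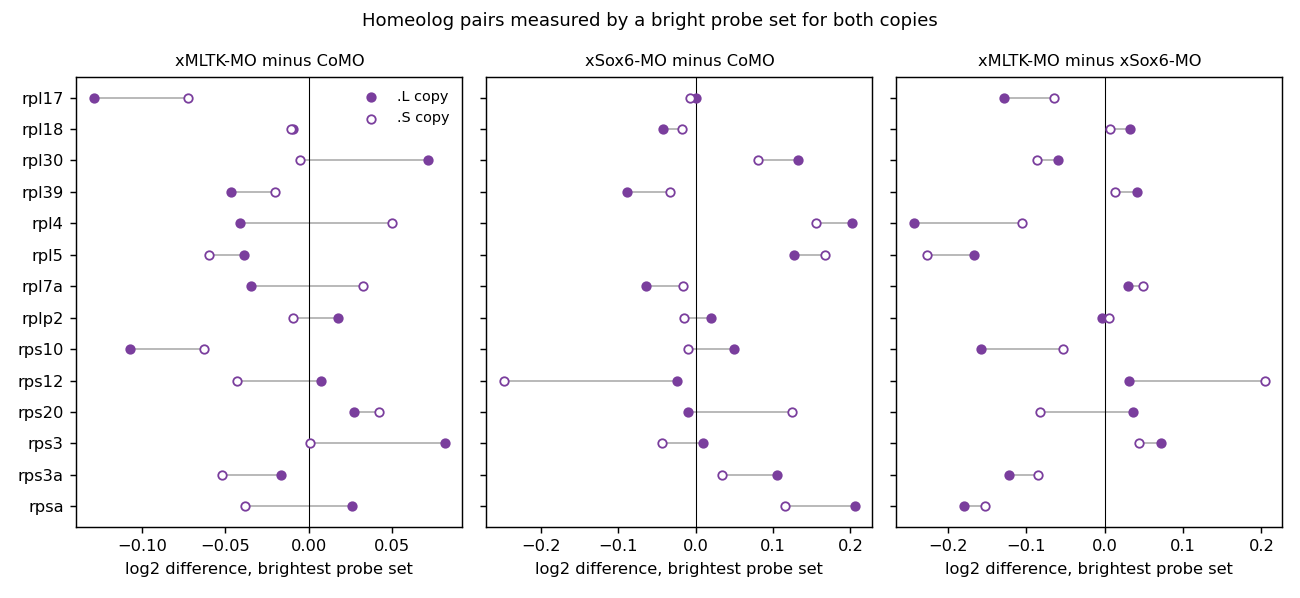
Log2 difference of the brightest probe set for the .L copy (filled circle) and the .S copy (open circle) of 14 homeolog pairs, in each comparison; the panels have their own horizontal scales. Copies of rpl5, rpl4 and rpsa lie together on the positive side in xSox6-MO minus CoMO, and the copies of rps12 are 0.22 apart there.

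The 18 probe sets with several symbols, which the rule leaves out, gave similar values. They had log2 levels of 12.61 to 14.15 on single arrays, and their differences ranged from -0.16 to 0.081 in xMLTK-MO against CoMO (median 0.0061), from -0.022 to 0.13 in xSox6-MO against CoMO (median 0.075) and from -0.21 to 0.024 in xMLTK-MO against xSox6-MO (median -0.061).

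Messages for the machinery that assembles ribosomes were mostly higher in both knockdown groups than in CoMO, while those for the ribosomal proteins were near level. The lists were not matched for intensity. The ribosomal protein genes had a median log2 level of 13.02, against 8.34 for all genes passing the filter. The part of level in this contrast was not tested. Of 90 ribosome biogenesis genes that passed the filter, 80 were higher and 10 lower in xMLTK-MO, with a median of 0.28. At 1.2-fold 49 were higher and 1 lower, where 15.9% and 18% of all genes were. In xSox6-MO 85 were higher and 5 lower, with a median of 0.43. At 1.2-fold 70 were higher and 0 lower, where 18.1% and 18.5% of all genes were. Centred on the poly-A controls, the medians of the biogenesis genes were 0.55 and 0.80. Those of the ribosomal protein genes were 0.26 and 0.43, and those of all genes 0.25 and 0.37. Among the biogenesis genes, ddx52.S, an RNA helicase, had log2 levels of 8.54 in xMLTK-MO, 8.72 in xSox6-MO and 7.49 in CoMO. rpf1.L had 9.95, 10.34 and 9.15. Of 10 genes of RNA polymerase I, which transcribes the large ribosomal RNAs, 9 were higher in xMLTK-MO than in CoMO and 10 were higher in xSox6-MO, with medians of 0.23 and 0.31. Of all genes, 46.9% were higher in xMLTK-MO and 49.1% in xSox6-MO. At 1.2-fold 4 and 6 of the 10 were higher, where 15.9% and 18.1% of all genes were. The RNA polymerase I initiation factor rrn3.L had 7.61 in xMLTK-MO, 8.44 in xSox6-MO and 6.60 in CoMO, 2.01-fold and 3.57-fold higher than in CoMO.

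Translation factors were mixed. Initiation factors were taken as every symbol of eif followed by a digit. The list therefore held eif4ebp2.L, also counted below among regulators of ribosomal protein synthesis, and shared 1 gene with the ribosome biogenesis list. Of its 50 genes, 26 were higher and 24 lower in xMLTK-MO than in CoMO (median 0.0088). In xSox6-MO 38 were higher and 12 lower than in CoMO (median 0.20). Beside these and the next counts, 46.9% of all genes were higher and 53.1% lower in xMLTK-MO than in CoMO. In xSox6-MO these shares were 49.1% and 50.9%. eif5.S was at 11.88 in xMLTK-MO, 12.15 in xSox6-MO and 11.07 in CoMO. Of 14 elongation factors and other genes whose messages share the pyrimidine tract, 8 were higher in xMLTK-MO than in CoMO and 9 were higher in xSox6-MO, with medians of 0.033 and 0.17. Of 47 mitochondrial ribosomal protein genes, 19 were higher and 28 lower in xMLTK-MO against CoMO, with a median of -0.030. In xSox6-MO against CoMO 25 were higher and 22 lower, with a median of 0.010. On the poly-A controls each of these medians against CoMO was above 0. In xMLTK-MO and xSox6-MO they were 0.28 and 0.57 for initiation factors. For elongation factors with the other pyrimidine tract genes they were 0.30 and 0.54, and for mitochondrial ribosomal proteins 0.24 and 0.38. In xMLTK-MO against xSox6-MO the medians were -0.16 for initiation factors and -0.10 for elongation factors with the other pyrimidine tract genes. They were -0.079 for mitochondrial ribosomal proteins, -0.15 for ribosome biogenesis and -0.12 for RNA polymerase I, beside -0.052 for the ribosomal protein genes.

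**Figure D5:**
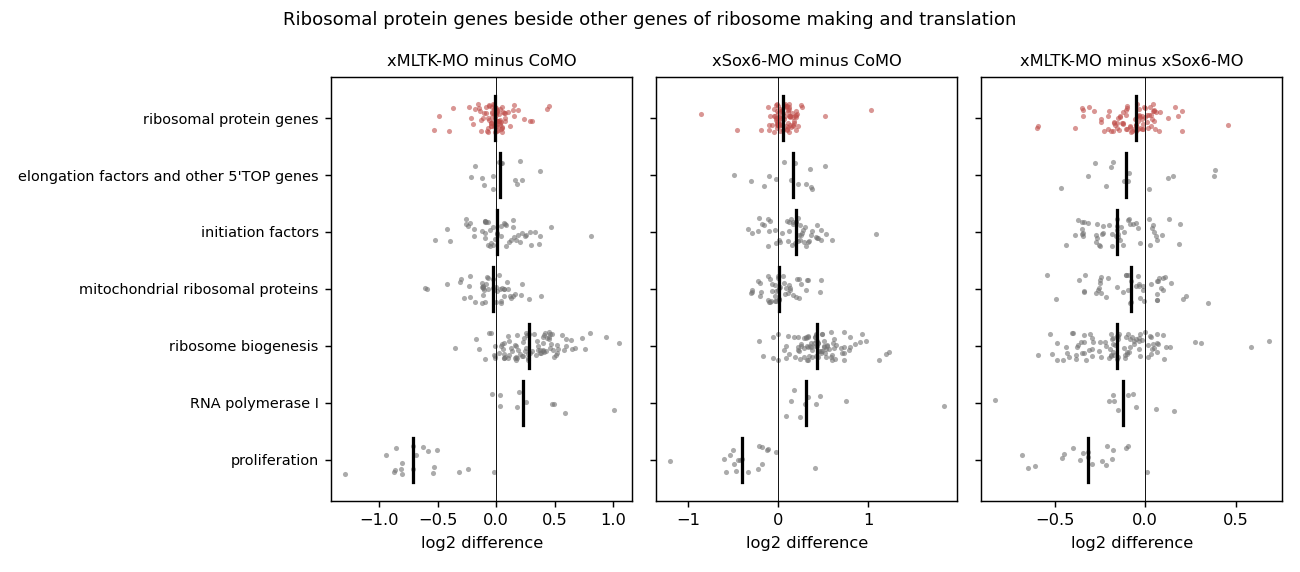
Log2 difference per gene (points) and median (black bar) for the 84 ribosomal protein genes (red) and for related lists (grey), in each comparison; the panels have their own horizontal scales. Ribosome biogenesis genes have medians of 0.28 in xMLTK-MO minus CoMO and 0.43 in xSox6-MO minus CoMO, where the ribosomal protein genes have -0.0085 and 0.056.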

How the data were processed

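RNA of 3 head samples, 1 array each, was analysed. The deposited table holds 1 intensity per probe set and array, not log-transformed, made with RMA (background correction, quantile normalisation and probe summary) per the submitters' processing notes, with GeneChip operating Software 1.4 and GeneSpring GX 11.0.2 per the series' design text. Quantile normalisation brings the arrays to nearly the same distribution, so a shift common to all transcripts would be largely removed; the deposited medians still differed slightly.

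Log2 was taken here, probe sets of a symbol were averaged and homeologs kept apart. Symbols came from the platform annotation, which named 1 gene for 15505 probe sets, several for 279 and none for 16851; of the 149 ribosomal protein probe sets, 147 matched a RefSeq gene table by gene identifier and no symbol changed. Genes at or above log2 6.51 were compared by difference of log2 intensity and counted past 1.2-fold and 2-fold. The arrays' number limits the precision: with 1 array per group no test, SD or interval was possible.

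Named were the 6 largest differences each way per comparison, any gene past 2-fold, genes below the filter, fixed role groups and 5 homeolog pairs, and for related lists the largest 3 differences were eligible. The members and lists were chosen with earlier results of these data known. Alternatives were no filter, a filter at log2 11, the brightest probe set, only _at probe sets, renewed quantile normalisation, centring on the mean of 27 hybridisation or 36 poly-A control probe sets, 50 added before log2, and, chosen after seeing the data, probe sets counted singly. The scripts (Python 3.11.15, pandas 2.3.3, numpy 2.4.6) were tested on simulated data for the median differences of the ribosomal protein genes only.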

Additional observations from a re-analysis of the deposited data

How the results depend on the processing

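No paired analysis was possible because each group has 1 array, and for the same reason no array could be left out. Of 108 values recomputed under the alternatives, 73 stayed within the set tolerance (0.1 log2, or 1.5 times for a count) and 35 moved. That tolerance is wider than the median of all ribosomal protein genes and the subunit gap in each comparison, so signs were not stable within it: the median of xMLTK-MO minus CoMO, -0.0085, was 0.0033 after renewed quantile normalisation and 0.0011 with probe sets counted singly, and the subunit gap of xSox6-MO minus CoMO, 0.0079, was -0.018 with no level filter. Removing the level filter moved none of 12 past the tolerance. Centring on the hybridisation controls gave medians of 0.098 in xMLTK-MO minus CoMO and 0.20 in xSox6-MO minus CoMO, and 26 genes past 1.2-fold higher in the second. Centring on the poly-A controls gave medians of 0.26, 0.43 and, in xMLTK-MO minus xSox6-MO, -0.15. Past 1.2-fold 42 genes were then higher and 0 lower in xMLTK-MO minus CoMO, and 81 and 1 in xSox6-MO minus CoMO. In xMLTK-MO minus xSox6-MO 19 were lower. The medians of all genes against CoMO moved as well, to 0.085 and 0.14 on the hybridisation controls and 0.25 and 0.37 on the poly-A controls. A 1.2-fold difference is 0.263 in log2, so more of all genes pass it upwards there too. Their shares on these scales are not given here. Either centring shifts all genes by the same amount and so cannot change the median of the ribosomal protein genes minus that of all genes. This gap was 0.013, 0.061 and -0.041 over genes passing the level filter. It was smaller in size among genes with a bright probe set, whose medians are given above, but there each gene was also read from that probe set. With gene means kept and the filter at log2 11, the medians stayed further apart in the comparisons with xSox6-MO. They were 0.059 for ribosomal protein genes and 0.011 for all genes in xSox6-MO minus CoMO. In xMLTK-MO minus xSox6-MO they were -0.060 and -0.028, and in xMLTK-MO minus CoMO -0.011 and -0.015. The counts past 1.2-fold moved as follows. In xMLTK-MO minus CoMO, 4 higher became 1 with the filter at log2 11, with the brightest probe set or with 50 added, and 9 with probe sets counted singly, chosen after seeing the data. There 4 lower became 2 with the filter at log2 11 or 50 added, 1 with only _at probe sets and 12 singly. In xSox6-MO minus CoMO, 2 higher became 1 with the filter at log2 11, 5 with only _at probe sets, 4 after renewed quantile normalisation and 12 singly, and 2 lower became 1 with the filter or only _at probe sets and 7 singly. In xMLTK-MO minus xSox6-MO, 1 higher became 0 with the filter at log2 11, the brightest probe set, only _at probe sets or 50 added, and 2 singly, and 8 lower became 5 with the filter or the brightest probe set, 4 with only _at probe sets and 13 singly. A stricter filter or 50 added takes out or damps dim values by construction, and counting singly raises the number counted to 137; other causes were not tested. Signal over background limits the dim probe sets, and saturation was not assessed.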

Other observations

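Regulators of ribosomal protein synthesis that passed the filter (13 genes) had median log2 differences of 0.091 in xMLTK-MO minus CoMO, -0.063 in xSox6-MO minus CoMO and 0.021 in xMLTK-MO minus xSox6-MO; on the poly-A controls these were 0.36, 0.31 and -0.081, and by the brightest probe set 0.16, 0.072 and -0.019, so the first alone had 1 sign in these 3 summaries. By sign 8 were higher and 5 lower in xMLTK-MO than in CoMO, where 46.9% and 53.1% of all genes were. In xSox6-MO 6 were higher and 7 lower than in CoMO, where 49.1% and 50.9% of all genes were. The growth regulator myc.L had log2 levels of 10.02 in xMLTK-MO, 10.00 in xSox6-MO and 9.18 in CoMO, and mycn.S had 9.63, 9.86 and 9.11. Lower in both knockdown groups was eif4ebp2.L, at 7.95, 8.30 and 8.47. The S6 kinase gene rps6kb1.S had 8.14, 7.58 and 8.01, lowest in xSox6-MO.

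Of 6 measured genes of the p53 arm, 3 passed the filter. All 3 were at least 1.2-fold higher in both knockdown groups than in CoMO. Of all genes, 15.9% were so in xMLTK-MO and 18.1% in xSox6-MO. The p53-induced exonuclease aen.L had log2 levels of 8.92 in xMLTK-MO, 8.88 in xSox6-MO and 7.60 in CoMO. ccng1.S had 8.61, 8.57 and 7.77, and ccng1.L had 13.73, 13.63 and 13.08. Below the filter, the cell cycle inhibitor cdkn1a.L had 6.98, 6.86 and 4.74 and gadd45a.S had 6.62, 6.17 and 5.89. The p53 inhibitor mdm4.S was dim, at 4.63, 4.82 and 5.16, the first below the highest negative control of its array. Of 19 proliferation genes 0 were higher and 19 lower in xMLTK-MO than in CoMO, with a median of -0.71. In xSox6-MO 1 was higher and 18 lower than in CoMO, with a median of -0.40. Of all genes, 53.1% and 50.9% were lower in these comparisons. At 1.2-fold 17 proliferation genes were lower in xMLTK-MO and 11 in xSox6-MO, where 18% and 18.5% of all genes were. On the poly-A controls the medians of the proliferation genes were -0.44 and -0.029, and 9 were higher and 10 lower in xSox6-MO. Their relation to the ribosomal protein values was not tested.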
